A study of Rattus norvegicus with 32 samples.

Results

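B2m, Tap1, Tap2, Tapbp, Cd74, Irf1 and Irf7 are genes of the interferon response and of antigen presentation, and their mRNA was followed here in CA3 neurons of the rat hippocampus after traumatic brain injury (TBI). They were chosen by gene symbol in the annotation of the array, which gave 10 probes for 7 genes out of 33849 probes. Adult male Sprague-Dawley rats received metyrapone (MT, 100 mg/kg) before fluid percussion TBI (TBI+MT), carbenoxolone (CB, 30 mg/kg) before TBI (TBI+CB), saline before TBI (TBI), or a sham injury with surgery and saline but no impact (Sham), and brains were collected at 4 or 24 h. MT inhibits glucocorticoid synthesis, and CB inhibits the 11-beta-hydroxysteroid dehydrogenases that interconvert active and inactive glucocorticoids. Neurons that Fluoro-Jade, a stain for degenerating neurons, had not marked were taken by laser capture, and their RNA was amplified before hybridization to CodeLink arrays. Each of the 8 groups held 2 pooled samples from several rats, and each pooled sample was hybridized to duplicate arrays, which makes 16 pooled samples on 32 arrays. The labels and the methods differ in the interval between drug and injury and in the number of rats per pool, and the labels call the 4 h sham rats untreated where the methods give them saline. They also differ in whether the 4 and 24 h run from treatment or from surgery. Because stained neurons were avoided, the samples stand for surviving cells only. The p-values rest on the spread between pools of the same group, shared over all 8 groups.

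Interferons bind receptors that activate STAT transcription factors, and these switch on interferon-stimulated genes together with interferon regulatory factors such as Irf1 and Irf7. Among the genes they induce are those that load peptides onto MHC class I molecules. In that pathway Tap1 and Tap2 form the transporter that carries peptides into the endoplasmic reticulum, Tapbp (tapasin) tethers the empty class I molecule to the transporter, and B2m is the light chain of the finished molecule. Cd74, the invariant chain, serves MHC class II instead. In healthy brain most of these genes are low in neurons and better known from microglia and endothelium.

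The promoters of 5 of the 7 genes hold the letters of the core interferon-stimulated response element, which reads GAAA NN GAAA without spaces, on either strand within the 300 bases around the start site in RefSeq (build GRCr8). Those letters occur in 3.92% of the 33469 promoter windows of the same length. The gamma-activated site, TTCNNNGAA, which reads the same on both strands, is in the window of Irf1 only, and in 8.87% of all windows, while a CCAAT box lies in 3 of the 7 windows and in 37.5% of all. A match is a description of the letters and not of a bound factor. The stretches that hold the interferon motifs are given because they are the sequence feature most of the members share, read 5′ to 3′ along the gene with the motif in capitals, and in Tap1 and Irf7 the match is on the opposite strand. They lie at chr3:129549156-129549213 on the forward strand for B2m, chr20:4668631-4668688 on the reverse strand for Tap1, chr20:4652304-4652361 on the reverse strand for Tap2, chr20:4967870-4967927 on the reverse strand for Tapbp, chr1:205800059-205800116 on the reverse strand for Irf7 and chr10:38417769-38417825 on the forward strand for Irf1. In Tapbp a second match overlaps the end of the first.
B2m: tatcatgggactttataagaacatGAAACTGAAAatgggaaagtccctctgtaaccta
Tap1: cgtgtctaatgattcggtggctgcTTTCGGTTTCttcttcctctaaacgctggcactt
Tap2: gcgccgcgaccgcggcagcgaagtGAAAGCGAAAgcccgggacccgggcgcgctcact
Tapbp: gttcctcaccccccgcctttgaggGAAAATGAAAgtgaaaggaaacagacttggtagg
Irf7: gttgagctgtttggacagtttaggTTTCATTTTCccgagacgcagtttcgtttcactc
Irf1: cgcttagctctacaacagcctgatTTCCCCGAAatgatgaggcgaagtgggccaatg
The motif begins 150 bases before the start site in B2m, 121 in Tap1, 41 in Tap2, 26 in Tapbp, 69 in Irf7 and 142 in Irf1. Distances count from the start site on which the RefSeq promoter window is placed, which in B2m, Tapbp and Irf7 lies inside the span of the gene. The genes themselves lie at chr3:129549236-129555354 (B2m), chr20:4658171-4668543 (Tap1), chr20:4638257-4652296 (Tap2), chr20:4958821-4967958 (Tapbp), chr18:56527071-56536406 (Cd74), chr10:38417935-38424946 (Irf1) and chr1:205796956-205800543 (Irf7), so that Tap1, Tap2 and Tapbp share a stretch of chromosome 20.

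Levels are intensities divided by the median of the array, so a level of 1 is that of the median probe, and levels of different probes cannot be set against each other. An array had 26.1 to 65.9% of its probes above background, and the 17635 probes that exceeded it on each of the 4 arrays in 1 or more groups were kept for testing. TBI+MT replicate 1 and TBI+CB replicate 2 at 24 h were the dimmest samples, with 26.1 to 30.2% of probes above background. Duplicate arrays of a sample had a median correlation of 0.975 across probes, against 0.873 for the 2 samples of a group. By gaps in their serial numbers the slides were put into 3 runs, which no source used here calls processing batches. These runs separate both 24 h drug groups from TBI. They also separate both 4 h sham samples from all 4 h groups but 1 TBI sample. All TBI and sham samples at 24 h share a run. Of the pyramidal neuron markers with a probe, Camk2a and Slc17a7 were above background on 32 of 32 arrays and Grin2b on 28. The astrocyte genes Gfap and Slc1a3, the oligodendrocyte gene Mag, the microglial gene Tyrobp and the endothelial gene Pecam1 were above background on all 32 arrays too. Within a cell type the markers differed. Above background on 0 arrays were Ptprc, Cd4, Ccr2 and Kdr, and on 3 Mbp of oligodendrocytes. Cd3e of T cells was above it on 29, but Cd3g and Cd8a on 1 each. S100a9 of neutrophils and monocytes was above it on 22, but S100a8, Mpo and Lyz2 on 1 each. Of the interneuron genes Gad1 was above it on 31, Pvalb and Npy on 29, Sst on 14, Slc32a1 on 4 and Gad2 on 1. Markers of the labelled neurons were thus present, and so were some genes of glia, vessels and interneurons.

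Of the 10 probes, 5 passed the filter, 1 for each of B2m, Tap1, Tapbp, Irf1 and Irf7. Irf1 was the one gene above background throughout, on 32 of 32 arrays, at 2.06 to 5.64 array medians. Irf7 was above background on 26 arrays and ranged furthest, with pooled samples between 0.201 and 10.1. B2m was above background on 21 arrays, Tap1 on 20 and Tapbp on 18. Tap2 and Cd74 were not tested. For Tap2, 1 probe was above background on 5 arrays and the other on 0. The Cd74 probe was above background on 10 arrays, never on all 4 of a group, and its samples lay between 0.297 and 3.31. Second probes of Tap1 and Irf1 were above background on 0 and 5 arrays and did not follow the first, with correlations over the 16 samples of 0.042 and 0.066. The spread between the 2 samples of a group, as an SD on the log2 scale, was 0.42 for Irf1, 0.77 for Tap1, 1.03 for Tapbp, 1.12 for B2m and 1.59 for Irf7. Between duplicate arrays it was 0.15, 0.26, 0.31, 0.62 and 0.52 in the same order of genes.

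**Figure D1:**
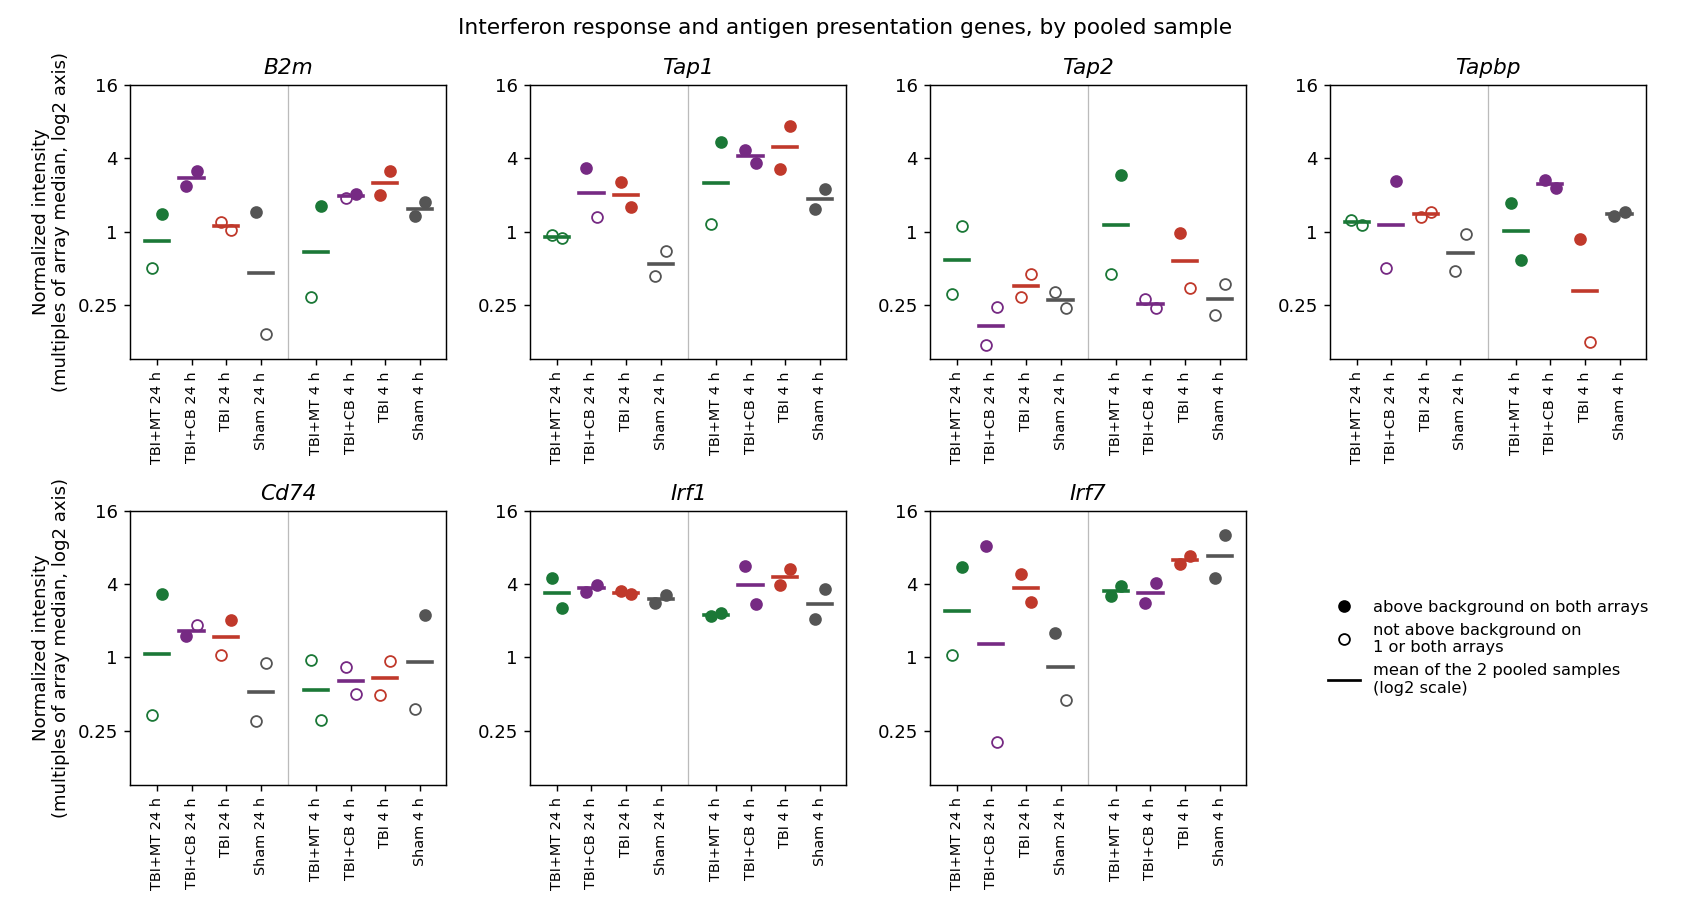
Normalized intensity (multiples of the array median, log2 axis) of 1 probe for each of the 7 genes in the 16 pooled samples, 24 h groups left and 4 h groups right in each panel, with filled points above background on both arrays, open points not so on 1 or both, and a bar for the mean of each group. Irf1 stays between 2.06 and 5.64, while at 24 h both TBI samples lie above both sham samples for Tap1, Tapbp, Irf1 and Irf7.

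Whether TBI raised these genes by 24 h was asked first, and in that comparison all samples share a slide run. Tap1 and Irf7 showed the widest gaps between the groups. Tap1 measured 2.54 and 1.59 in TBI and 0.430 and 0.692 in sham, where it was above background on 0 of 4 arrays. Both TBI samples exceeded both sham samples, and with the sham level taken as no lower than the faintest signal above background on each array, Tap1 was at least 1.80-fold higher in TBI (measured log2 difference 1.88 ± 0.743 SE, limma, adjusted p = 1.00). Irf7, the regulator that amplifies type I interferon, measured 4.87 and 2.85 in TBI and 1.59 and 0.442 in sham. Sham replicate 2 was not above background. The groups did not overlap, with a log2 difference of 2.15 ± 1.36 (SE, limma, adjusted p = 1.00).

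The tapasin gene Tapbp measured 1.32 and 1.46 in TBI and 0.478 and 0.946 in sham, again without overlap. It was above background on 1 of 4 TBI arrays and on 0 sham arrays, so its measured log2 difference of 1.05 ± 0.931 (SE, limma, adjusted p = 1.00) lies almost wholly between levels not above background. Irf1 measured 3.48 and 3.30 in TBI and 2.78 and 3.23 in sham, a log2 difference of 0.18 with a 95% interval of -0.95 to 1.30. B2m measured 1.20 and 1.02 in TBI and 1.44 and 0.143 in sham. The 2 TBI values of B2m, neither above background, fell between the 2 sham values, so its log2 difference of 1.28 rests on sham replicate 2 and was -0.39 without it. Of the genes not tested, Cd74 measured 1.04 and 2.04 in TBI and 0.297 and 0.892 in sham. Tap2 measured 0.290 and 0.445 in TBI and 0.317 and 0.234 in sham, below background throughout.

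By count, 5 of 5 tested genes had a mean in TBI above that in sham at 24 h, as did 51.0% of all probes tested. For 4 of the 5 the measured difference was over 2-fold, against 4.09% of all probes, and for 4 of 5 both TBI samples were above both sham samples, against 13.1% of all probes. Of the 4 genes over 2-fold, Tap1 and Tapbp were not above background in sham and B2m not in TBI, and the count was 3 without sham replicate 1, sham replicate 2 or TBI replicate 2. The median log2 difference of the 5 genes was 1.28 and that of all probes was 0.012. All 5 had passed the filter through a group other than the 2 compared. Limma called 0 of the 5 (0% of the 17618 probes tested), and 1 of 5 had an unadjusted p under 0.05, against 1.84% of all probes.

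The other genes of the pathway, in 8 lists written from general knowledge, are 166, of which 104 have a named probe and 59 passed the filter. Members and lists were chosen with earlier results of these data known, so their counts beside all probes are descriptions. At 24 h 42 of these 59 were higher in TBI than in sham, against 51.0% of all probes, 19 were over 2-fold higher, against 4.09%, and 1 was over 2-fold lower. For 22 of the 59 both TBI samples were above both sham samples, against 13.1% of all probes. In limma 0 passed the threshold, with 7 at an unadjusted p under 0.05, against 1.84% of all probes. Of the interferon-stimulated genes, the longest list, 19 of 21 were higher and 10 over 2-fold higher, with a median log2 difference of 0.89. When each sample was left out in turn, 17 to 20 of the 21 were higher and 8 to 10 over 2-fold higher. All 21 had also passed the filter in a group outside this comparison. Genes named from the lists, at either time, were among the 2 with the smallest unadjusted p of their list in a comparison. Their lack of overlap was in part set by that choice.

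Usp18, an ISG15-specific protease that restrains interferon signalling, measured 29.8 and 6.44 in TBI and 0.366 and 1.31 in sham, with 0 of 4 sham arrays above background. Its level in TBI was at least 12.4-fold higher (measured log2 difference 4.32 ± 1.47 SE, limma, adjusted p = 1.00). Oas1i, of the family of antiviral oligoadenylate synthetases, measured 41.0 and 14.4 in TBI and 3.16 and 9.07 in sham, a log2 difference of 2.18 ± 0.814. Both genes had all TBI values above all sham values, as did 11 of the 21 interferon-stimulated genes, against 13.1% of all probes.

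Of the MHC class II genes 4 of 5 were higher in TBI at 24 h, with a median of 1.21, and of the immunoproteasome genes 5 of 5, with a median of 0.69. RT1-Ba, a class II chain, measured 2.08 and 2.36 in TBI and 0.417 and 0.665 in sham, not above background, which makes it at least 1.99-fold higher. RT1-DMb, of the class II peptide loading factor, measured 7.66 and 15.3 in TBI and 2.54 and 3.95 in sham. Psmb8, a catalytic subunit of the immunoproteasome, measured 106 and 41.4 in TBI and 12.0 and 38.4 in sham, and Psme1, of its activator, 16.8 and 19.4 in TBI and 9.89 and 12.6 in sham. In each of these genes the lower TBI value was above the higher sham value. This held for 3 of 5 class II genes and 3 of 5 immunoproteasome genes, against 13.1% of all probes.

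Class I heavy chains and loading factors had 3 of 10 higher in TBI at 24 h and a median log2 difference of -0.034. Fcgrt, the neonatal Fc receptor, had the largest difference of the 10, with 11.0 and 17.5 in TBI and 3.29 and 4.65 in sham, while the class I gene RT1-CE2 measured 0.840 and 0.389 in TBI and 1.74 and 0.523 in sham. Interferon receptors and signalling genes had 2 of 6 higher and a median of -0.17. Their signal transducer Stat2 measured 47.0 and 35.2 in TBI and 25.5 and 13.3 in sham, and Ifngr1, a chain of the interferon gamma receptor, 2.60 and 2.74 in TBI and 3.61 and 0.864 in sham. The regulator Irf9, which binds DNA together with Stat2, measured 21.7 and 23.7 in TBI and 6.89 and 10.2 in sham, a log2 difference of 1.43 ± 0.749. Irf2 measured 1.35 and 2.18 in TBI and 1.49 and 0.497 in sham, so its groups overlapped, and 4 of 5 regulatory factors were higher. The receptor Tlr2 measured 2.07 and 2.84 in TBI and 0.207 and 0.272 in sham, which makes it at least 2.18-fold higher (measured log2 difference 3.35 ± 0.770 SE, limma, adjusted p = 0.766), the lowest adjusted p among the list genes in this comparison. Ticam1, the adaptor of Tlr3, overlapped between groups with 236 and 191 in TBI and 112 and 235 in sham. None of the interferon genes themselves passed the filter, since 2 of 10 have a probe and 0 of those passed.

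A sum of microglia and macrophage markers was higher in the same samples. The summed level of the 10 markers was 133 to 149 in TBI and 36.9 to 67.5 in sham at 24 h, and 7 to 9 of the 10 were above background on both arrays of a TBI sample, against 5 to 6 in sham. Most of that sum came from 2 probes, Csf1r at 88.0 and 62.7 in TBI and 17.2 and 39.1 in sham, and Tyrobp at 40.3 and 46.8 in TBI and 8.27 and 13.9 in sham. The other 8 markers, split off after their values were seen, summed to 21.2 and 23.9 in TBI and 11.4 and 14.5 in sham. Ptprc, which marks all white blood cells, was not above background in any sample. The summed markers of pyramidal neurons were 35.5 to 52.6 in TBI and 43.6 to 46.7 in sham, those of astrocytes 118 to 164 in TBI and 139 to 167 in sham, and those of endothelium and pericytes 59.8 to 75.3 in TBI and 52.8 to 54.7 in sham. The part of other cells in the interferon genes was not tested, and in pooled captured material more RNA per cell and more cells of a type cannot be told apart.

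**Figure D2:**
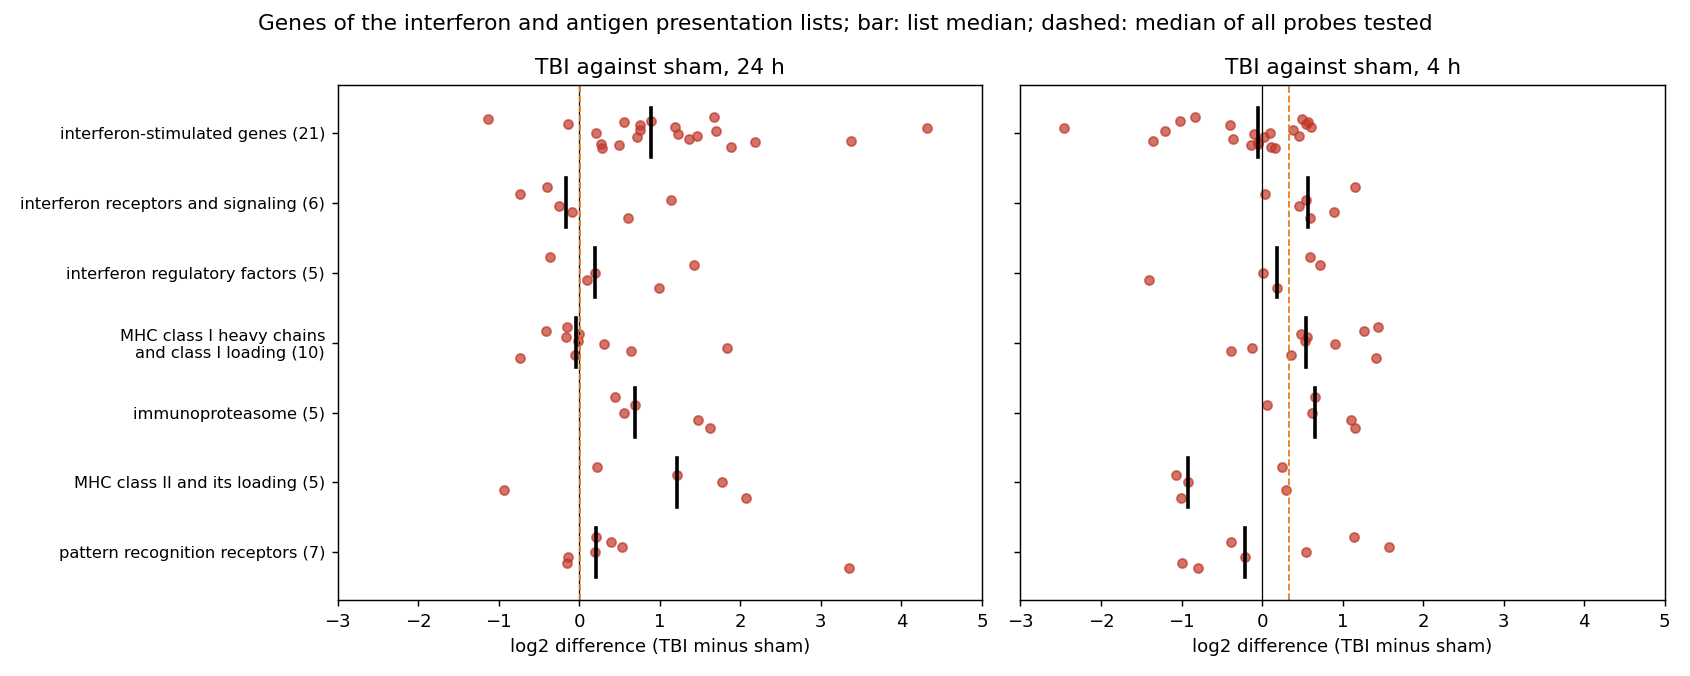
log2 differences between TBI and sham at 24 h (left) and 4 h (right) for the genes of each list that passed the filter, 1 point per gene, with the number of genes in brackets, a bar at the median of the list and a dashed line at the median of all probes tested. At 24 h 19 of 21 interferon-stimulated genes lie right of 0 with a median of 0.89, and at 4 h 10 of 21 with a median of -0.051.

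At 4 h TBI and sham gave a different picture, since Tapbp ran the other way. It measured 0.871 and 0.123 in TBI and 1.33 and 1.45 in sham, and both TBI samples were below both sham samples (log2 difference -2.08 ± 0.931 SE, limma, adjusted p = 0.936). TBI replicate 2 was not above background on its arrays, and within the slide run that sham shares with TBI replicate 1 the log2 difference was -0.67. Tap1 measured 3.28 and 7.42 in TBI and 1.53 and 2.24 in sham, all above background and without overlap (log2 difference 1.42 ± 0.743 SE, limma, adjusted p = 0.936), and 0.83 within the slide run.

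B2m measured 2.01 and 3.15 in TBI and 1.35 and 1.74 in sham, and Irf1 measured 3.95 and 5.31 in TBI and 2.06 and 3.67 in sham, with no overlap for either gene. The log2 differences were 0.72 with a 95% interval of -1.47 to 2.90 for B2m and 0.74 with an interval of -0.39 to 1.86 for Irf1. Irf7 measured 5.88 and 6.80 in TBI and 4.51 and 10.1 in sham, which overlap. Cd74 measured 0.493 and 0.926 in TBI and 0.378 and 2.23 in sham, and was above background on both arrays of sham replicate 2 only. Tap2 measured 0.967 and 0.345 in TBI and 0.206 and 0.372 in sham.

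At 4 h 3 of 5 genes were higher and 2 of 5 lower in TBI, against 69.1% and 30.9% of all probes. Over 2-fold differences were found for 1 of 5 genes upward and 1 of 5 downward, against 15.9% and 7.35% of all probes. For 3 genes both TBI samples were above both sham samples, against 36.4% of all probes, and for 1 gene both were below, against 7.58%. Limma called 0 of 5 (0% of all probes), with 1 of 5 at an unadjusted p under 0.05, against 3.34%. The probes as a whole stood 0.33 higher in TBI at the median, a shift of 0.029 after quantile normalization, and the 5 genes kept their directions under both scalings. Among the interferon-stimulated genes 10 of 21 were higher, 0 over 2-fold higher and 4 over 2-fold lower, and after quantile normalization 5 of 21 were higher. This rests in part on sham replicate 2, which had the highest median level of these genes of all 16 samples and the highest microglial sum of the 4 h samples (42.1 to 54.0 in TBI, 52.9 in sham replicate 1 and 149 in sham replicate 2). Without it 17 of 21 were higher in TBI and 5 over 2-fold higher. Without sham replicate 1 instead, 16 of 21 were lower in TBI and 6 over 2-fold lower. Usp18 measured 3.26 and 0.967 in TBI and 7.96 and 12.0 in sham at 4 h, and Irf3, which starts interferon transcription, 41.7 and 19.2 in TBI and 68.7 and 80.7 in sham. Both stood lower in each TBI sample than in either sham sample, though Usp18 was above background on 2 of 4 TBI arrays. Sting1, an adaptor of DNA sensing, measured 2.17 and 8.35 in TBI and 1.37 and 1.48 in sham. Class I and immunoproteasome genes were higher in 8 of 10 and 5 of 5, with Erap1, the peptide trimming enzyme, at 4.12 and 9.43 in TBI and 2.18 and 2.44 in sham.

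**Figure D3:**
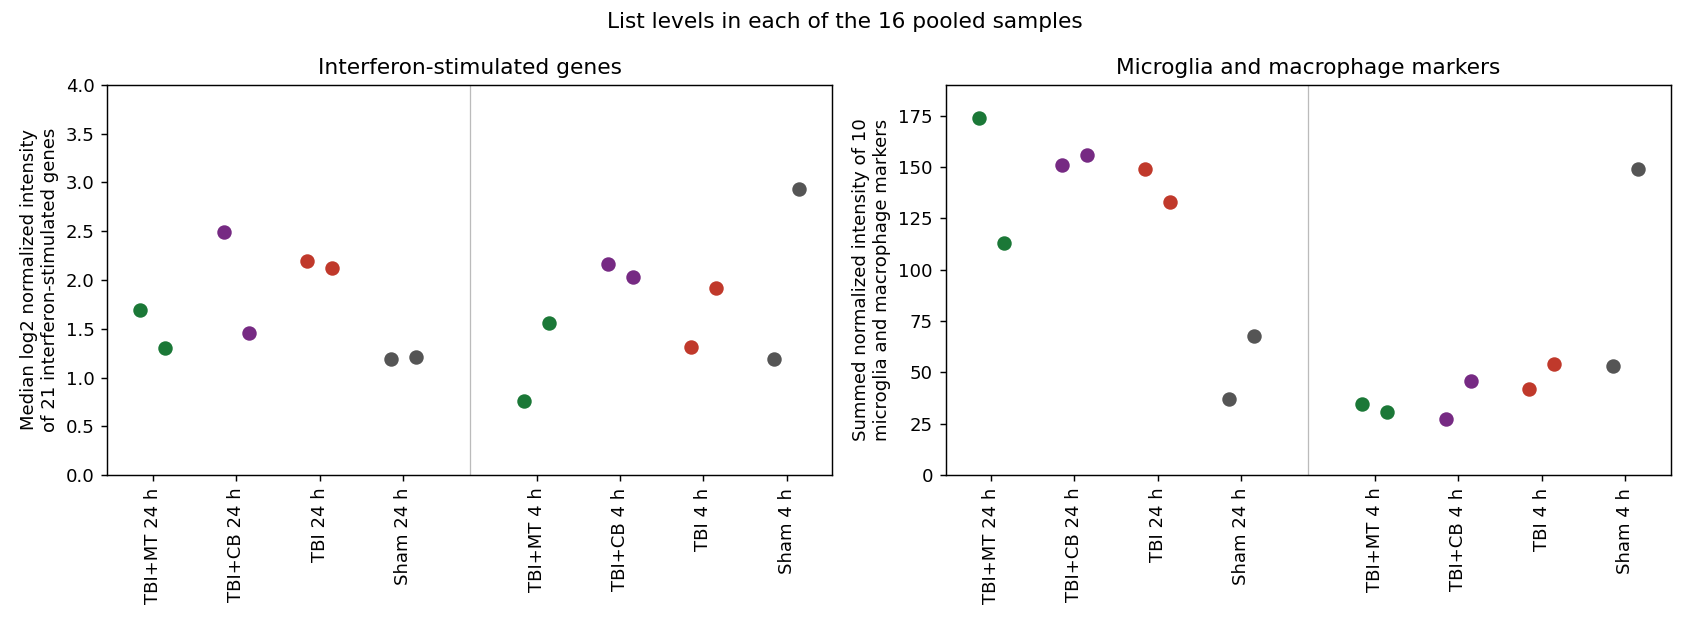
Left, median log2 normalized intensity of the 21 interferon-stimulated genes, and right, summed normalized intensity (multiples of the array median) of 10 microglia and macrophage markers, 1 point for each of the 16 pooled samples, 24 h groups left and 4 h groups right. Both panels have TBI above sham at 24 h (marker sums 133 to 149 in TBI and 36.9 to 67.5 in sham), and at 4 h sham replicate 2 stands above the other samples, at 149 for the markers, of which 102 is Csf1r.

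The response to TBI differed most between the times for Tapbp. TBI minus sham was 1.05 at 24 h and -2.08 at 4 h on the log2 scale, a difference of 3.13 ± 1.32 (SE, limma, adjusted p = 1.00) between the times. In this difference 0 of 5 genes passed the threshold (0% of all probes). For Irf7 the difference was 2.24 ± 1.92, for B2m 0.56 ± 1.42, for Tap1 0.47 ± 1.05 and for Irf1 -0.56 ± 0.729, each with a 95% interval that includes 0. At an unadjusted p under 0.05 there was 1 of 5, Tapbp, against 2.35% of all probes.

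The next question was whether either drug, given before the injury, altered these genes. At 24 h, with TBI+MT against TBI, Tap1 was the gene furthest apart. It measured 0.932 and 0.879 in TBI+MT, on 0 of 4 arrays above background, and 2.54 and 1.59 in TBI. That makes it at least 1.31-fold lower in TBI+MT (measured log2 difference -1.15 ± 0.743 SE, limma, adjusted p = 0.916). Irf7 measured 1.04 and 5.52 in TBI+MT and 4.87 and 2.85 in TBI, B2m 0.503 and 1.40 in TBI+MT and 1.20 and 1.02 in TBI, and Irf1 4.46 and 2.52 in TBI+MT and 3.48 and 3.30 in TBI. In these 3 genes the groups overlapped. Tapbp measured 1.24 and 1.14 in TBI+MT and 1.32 and 1.46 in TBI, with 1 of these 8 arrays above background, so that no fold can be given. Cd74 measured 0.336 and 3.31 in TBI+MT and 1.04 and 2.04 in TBI.

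All 5 means of log2 values were lower in TBI+MT, as were 74.0% of all probes, though for Irf1 the log2 difference was only -0.017 and became 0.31 after quantile normalization, and 1 of 5 was over 2-fold lower, against 13.8%. In 2 of 5 both TBI+MT samples were below both TBI samples, against 28.6% of all probes. Limma called 0 of 5 (0% of all probes), and 0 of 5 had an unadjusted p under 0.05, against 5.51%. Of the interferon-stimulated genes, 18 of 21 were lower in TBI+MT and 8 over 2-fold lower, at a median of -0.83, while the median of all probes was -0.39. Without the dim TBI+MT replicate 1, 14 of 21 were lower, and 28 of the 59 list genes instead of 44. Ifit1, an antiviral RNA-binding protein, measured 1.77 and 1.39 in TBI+MT and 4.32 and 4.42 in TBI (log2 difference -1.48 ± 0.514 SE, limma, adjusted p = 0.804). Ifit1 was above background on 1 of 4 TBI+MT arrays and 4 of 4 TBI arrays. Cxcl11, a chemokine induced by interferon gamma, measured 0.661 and 0.338 in TBI+MT, not above background, and 1.75 in both TBI samples, above background on 3 of 4 arrays, at least 1.33-fold lower. The microglial sum was 113 to 174 in TBI+MT and 133 to 149 in TBI, with 5 of the 10 markers above background on both arrays of each TBI+MT sample, against 7 to 9 in TBI, and the 8 markers other than Csf1r and Tyrobp summed to 22.6 and 17.3 in TBI+MT and 21.2 and 23.9 in TBI. Both drug groups at 24 h lie in another slide run than TBI, so run and drug cannot be told apart there.

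For TBI+CB against TBI at 24 h the 2 TBI+CB samples disagreed. B2m was higher in both, at 2.37 and 3.15 in TBI+CB and 1.20 and 1.02 in TBI, where it was not above background. That is at least 2.25-fold higher (measured log2 difference 1.31 ± 1.00 SE, limma, adjusted p = 0.677). Irf7 measured 8.19 and 0.201 in TBI+CB and 4.87 and 2.85 in TBI. Its 2 TBI+CB values enclose those of TBI, and its log2 difference of -1.54 was 1.14 without the dim TBI+CB replicate 2. Tap1 measured 3.31 and 1.31 in TBI+CB and 2.54 and 1.59 in TBI, Tapbp 0.503 and 2.59 in TBI+CB and 1.32 and 1.46 in TBI, and Irf1 3.45 and 3.96 in TBI+CB and 3.48 and 3.30 in TBI, with overlap in each. Cd74 measured 1.49 and 1.83 in TBI+CB and 1.04 and 2.04 in TBI.

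Of the 5 genes 3 were higher and 2 lower in TBI+CB, against 48.7% and 51.3% of all probes. Of these 1 was over 2-fold higher and 1 over 2-fold lower in TBI+CB, against 14.3% and 15.2% of all probes, and 1 lay without overlap above TBI, against 15.9%. Limma called 0 of 5 (0% of all probes), with 0 at an unadjusted p under 0.05, against 8.22%. Among the interferon-stimulated genes 14 of 21 were lower in TBI+CB and 6 over 2-fold lower. Without TBI+CB replicate 2, 9 of 21 were lower and 5 over 2-fold lower, and without TBI+CB replicate 1, 12 were over 2-fold lower. Parp14 measured 1.82 and 1.54 in TBI+CB, above background on 2 of 4 arrays, and 5.18 and 4.36 in TBI. Mx2, an antiviral GTPase, measured 2.74 and 2.76 in TBI+CB, above background on 3 of 4 arrays, and 6.58 and 5.70 in TBI. The class II gene RT1-Ba measured 0.596 and 0.531 in TBI+CB, 1.00 and 1.02 in TBI+MT and 2.08 and 2.36 in TBI (log2 difference of TBI+CB from TBI -1.98 ± 0.786 SE, limma, adjusted p = 0.592). RT1-Ba was above background on 4 of 4 TBI arrays but on 1 of 4 in each drug group, so these differences are set against levels mostly not above background. The costimulator Cd80 measured 2.84 and 2.67 in TBI+CB and 6.23 and 4.98 in TBI. Microglial sums were 151 to 156 in TBI+CB and 133 to 149 in TBI. Above background on both arrays were 9 of the 10 markers in TBI+CB replicate 1 and 2 in replicate 2, against 7 to 9 in TBI. The 8 markers other than Csf1r and Tyrobp summed to 25.6 and 17.8 in TBI+CB and 21.2 and 23.9 in TBI. Both drug comparisons share the TBI samples with each other and with the comparison of TBI and sham, so a value high in TBI enters each of them.

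**Figure D4:**
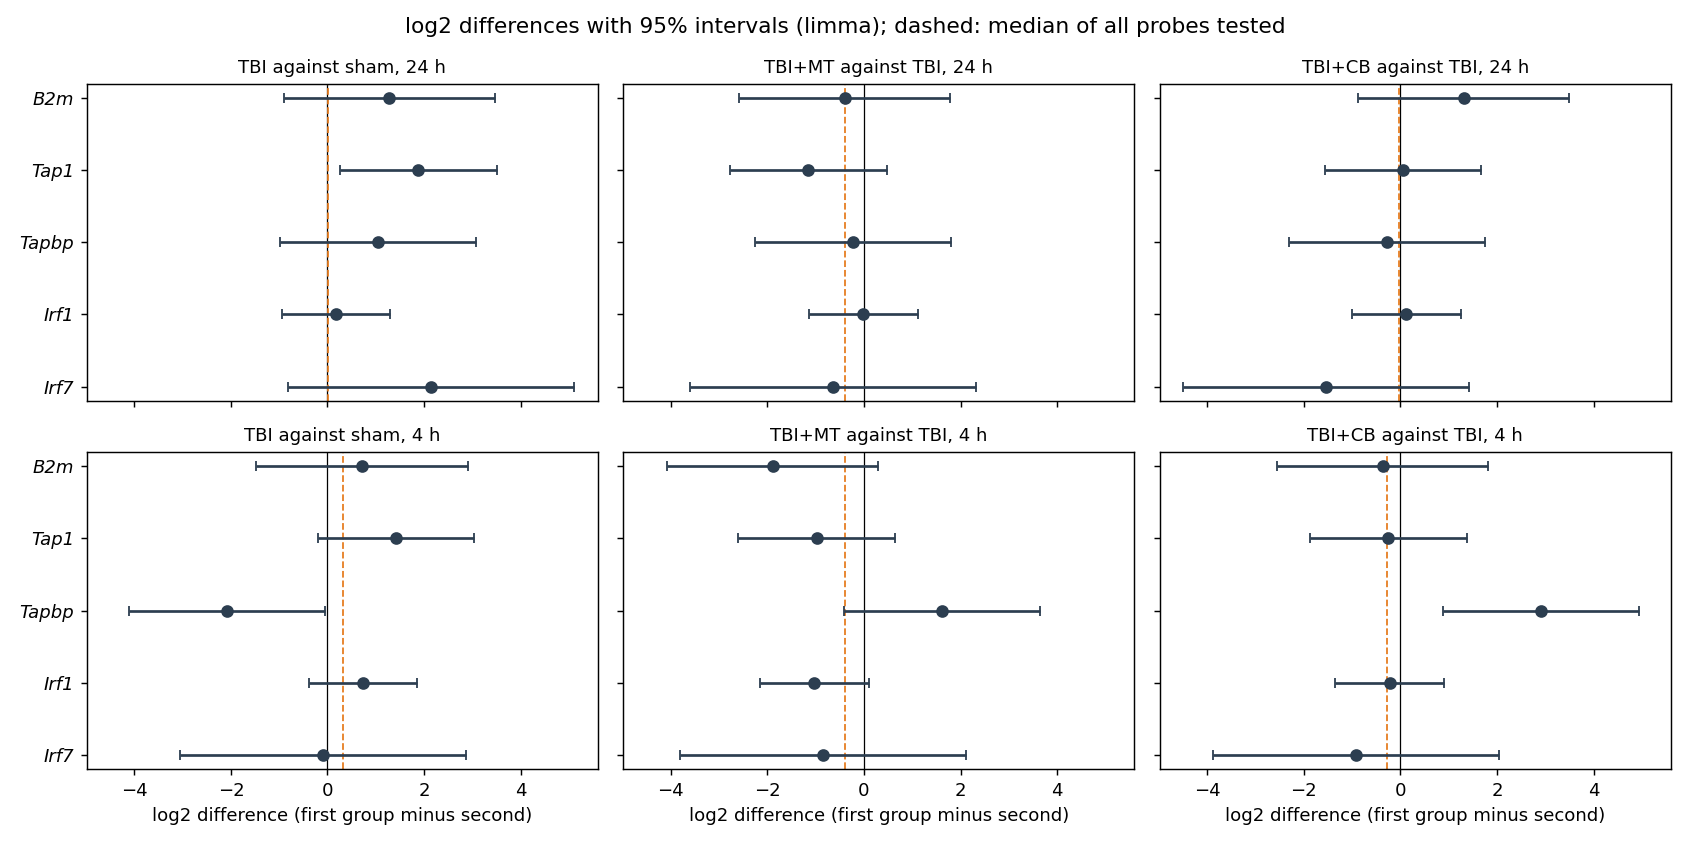
log2 differences (first group minus second) of the 5 tested genes with 95% intervals from limma for TBI against sham, TBI+MT against TBI and TBI+CB against TBI, at 24 h in the upper row and at 4 h in the lower, with a dashed line at the median of all probes tested. Intervals leave out 0 for Tap1 between TBI and sham at 24 h (1.88) and for Tapbp at 4 h between TBI and sham (-2.08) and between TBI+CB and TBI (2.91), none of which passed the adjusted threshold.

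At 4 h Tapbp was the gene furthest apart under CB. It measured 2.66 and 2.27 in TBI+CB and 0.871 and 0.123 in TBI, a log2 difference of 2.91 ± 0.931 (SE, limma, adjusted p = 0.957), and both TBI+CB samples were above both TBI samples. In TBI+MT it measured 1.71 and 0.589, which enclose the higher TBI value (log2 difference 1.62 ± 0.931 SE, limma, adjusted p = 0.736). Both comparisons lean on TBI replicate 2. Without it the difference was 1.50 for TBI+CB and 0.20 for TBI+MT, and without TBI replicate 1 it was 4.32 and 3.03. TBI+CB minus TBI changed between the times by -3.19 ± 1.32 for Tapbp (limma, adjusted p = 0.574).

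The other 4 tested genes had lower means of log2 values in TBI+MT at 4 h, and B2m was the furthest apart. B2m measured 0.289 and 1.61 in TBI+MT and 2.01 and 3.15 in TBI (log2 difference -1.88 ± 1.00 SE, limma, adjusted p = 0.736), Irf1 measured 2.17 and 2.32 in TBI+MT and 3.95 and 5.31 in TBI (log2 difference -1.03 ± 0.515 SE, limma, adjusted p = 0.736), and Irf7 measured 3.20 and 3.86 in TBI+MT and 5.88 and 6.80 in TBI. In all 3 both TBI+MT samples were below both TBI samples. TBI+MT replicate 1 was not above background for B2m, and the log2 difference of B2m was -0.64 without it and -3.12 without TBI+MT replicate 2. Tap1 overlapped, with 1.15 and 5.43 in TBI+MT and 3.28 and 7.42 in TBI. Tap2 had its highest value, 2.89, in TBI+MT replicate 2 and measured 0.450 in the other TBI+MT sample and 0.967 and 0.345 in TBI. Of the 5 genes 4 were lower and 1 higher, against 70.4% and 29.6% of all probes. Without overlap and lower were 3 of 5, against 33.6%, 2 of 5 were over 2-fold lower, against 25.1%, and 1 was over 2-fold higher, against 8.21%. The count over 2-fold lower was 0 without TBI+MT replicate 1, 1 without TBI replicate 2, and 3 without TBI+MT replicate 2 or TBI replicate 1. Limma called 0 of 5 (0% of all probes) with 0 at an unadjusted p under 0.05, against 4.73%.

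All probes stood 0.40 lower in TBI+MT at the median (log2 difference -0.40), and quantile normalization, which removes this shift, left B2m at -1.69 and Irf1 at -0.67. Of the 59 list genes 51 were lower in TBI+MT, against 70.4% of all probes, and 40 after quantile normalization. Among the interferon-stimulated genes 17 of 21 were lower, and 12 after quantile normalization. Their median log2 difference, -0.39, was near the -0.40 of all probes, and 6 of 21 were over 2-fold lower, against 25.1% of all probes. The interferon-stimulated Mx1 measured 0.417 and 1.04 in TBI+MT and 2.28 and 5.99 in TBI (log2 difference -2.48 ± 0.880 SE, limma, adjusted p = 0.736), Isg15 0.663 and 4.17 in TBI+MT and 5.92 and 7.36 in TBI, and Psmb9 of the immunoproteasome 0.295 and 1.41 in TBI+MT and 2.15 and 4.50 in TBI. These 3 lay below TBI in both samples, and each was above background on 2 of 4 TBI+MT arrays and 4 of 4 TBI arrays. Sting1 measured 0.535 and 0.751 in TBI+MT, 1.23 and 0.288 in TBI+CB and 2.17 and 8.35 in TBI. Its arrays above background were 2 of 4 in TBI+MT, 1 of 4 in TBI+CB and 4 of 4 in TBI. Irf3 ran the other way, at 106 and 46.8 in TBI+MT and 41.7 and 19.2 in TBI.

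In TBI+CB at 4 h, Irf7 measured 2.77 and 4.10 against 5.88 and 6.80 in TBI, both lower, with a log2 difference of -0.91 and a 95% interval of -3.87 to 2.05. B2m measured 1.87 and 2.02 in TBI+CB and 2.01 and 3.15 in TBI, Tap1 4.70 and 3.67 in TBI+CB and 3.28 and 7.42 in TBI, and Irf1 5.64 and 2.73 in TBI+CB and 3.95 and 5.31 in TBI, and each of these overlapped. Of the 5 genes 4 were lower and 1 higher, against 63.3% and 36.7% of all probes, and 1 lay without overlap above TBI and 1 below, against 7.41% and 34.6%. With 1 of 5 over 2-fold higher, against 4.55%, limma called 0 of 5 (0%), with 1 of 5 at an unadjusted p under 0.05, against 3.44%. All probes had a median log2 difference of -0.28, and after quantile normalization 3 of the 5 genes were higher in TBI+CB instead of 1. Among the interferon-stimulated genes 10 of 21 were higher and 11 lower in TBI+CB, with a median log2 difference of -0.0042. Of these 6 were over 2-fold higher, against 4.55% of all probes, and 1 over 2-fold lower. After quantile normalization 16 of 21 were higher and 6 over 2-fold higher. Of the 19 that passed the filter in a group outside this comparison, 4 were over 2-fold higher, against 4.52% of such probes. Cxcl11 measured 7.98 and 3.43 in TBI+CB and 1.96 and 1.07 in TBI, while Ifi27 measured 40.9 and 33.7 in TBI+CB and 60.6 and 105 in TBI.

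Between the drugs, at matched times, 10 differences were compared, 5 genes at each of 2 times, at the doses given above and with p-values adjusted over all probes. B2m was lower in both TBI+MT samples than in both TBI+CB samples at 24 h (0.503 and 1.40 in TBI+MT, 2.37 and 3.15 in TBI+CB, log2 difference -1.70 ± 1.00 SE, limma, adjusted p = 0.786) and at 4 h (0.289 and 1.61 in TBI+MT, 1.87 and 2.02 in TBI+CB, log2 difference -1.51 ± 1.00 SE, limma, adjusted p = 0.999). At 24 h Tap1 was also lower in both TBI+MT samples, by at least 1.36-fold with 2 of 4 TBI+CB arrays above background (measured log2 difference -1.20 ± 0.743 SE, limma, adjusted p = 0.786), and at 4 h Tapbp and Irf1 were (log2 differences -1.29 and -0.81). At 24 h 2 of 5 genes and at 4 h 3 of 5 lay without overlap below TBI+CB, against 10.3% and 19.2% of all probes. Lower in TBI+MT were 3 of 5 at 24 h and 4 of 5 at 4 h, against 62.1% and 65.4%, higher were 2 of 5 and 1 of 5, against 37.9% and 34.6%, and over 2-fold lower were 2 of 5 at each time, against 22.4% and 5.32%. Limma called 0 of 5 at either time (0% of all probes), with 0 at an unadjusted p under 0.05, against 5.07% and 3.11%. The 95% intervals of the differences in Irf7, -2.06 to 3.86 at 24 h and -2.90 to 3.02 at 4 h, leave several-fold differences in either direction possible. These intervals use the spread of Irf7 shared over all 8 groups, not that of the 2 drug groups alone.

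Across the times, Tap1 was lower at 24 h than at 4 h in each group, as were 60.8 to 73.2% of all probes. It measured 0.430 and 0.692 in sham at 24 h, not above background, and 1.53 and 2.24 in sham at 4 h, at least 1.66-fold lower at 24 h (measured log2 difference -1.76 ± 0.743 SE, limma, adjusted p = 0.919). In TBI the log2 difference between 24 h and 4 h was -1.30, in TBI+MT -1.47 and in TBI+CB -0.99, with no overlap in any of the 4 groups. Such a lack of overlap downward was found for 45.6% of all probes in TBI and for 20.6 to 22.7% in the other groups. The median log2 difference of all probes ran from -0.48 (TBI+MT and TBI) to -0.23 (sham). Quantile normalization left Tap1 at -1.76 to -0.84 across the groups. In TBI+MT the lower 4 h value, 1.15, and both 24 h values were not above background, and the log2 difference was -2.59 without TBI+MT replicate 1 at 4 h and -0.34 without replicate 2 at 4 h. Irf7 measured 1.59 and 0.442 in sham at 24 h and 4.51 and 10.1 in sham at 4 h (log2 difference -3.01 ± 1.36 SE, limma, adjusted p = 0.919), and in TBI 4.87 and 2.85 at 24 h and 5.88 and 6.80 at 4 h. The gap between TBI and sham at 24 h for Tap1 and Irf7 thus stands beside sham values that were themselves lower at 24 h than at 4 h. Tapbp differed between the times by 2.09 in TBI (24 h minus 4 h, limma, adjusted p = 0.323) and by -1.04 in sham, which became 1.78 with the slide run as a block. All 4 h and 24 h sham samples lie in different slide runs.

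Of the 5 genes, 4 were over 2-fold lower at 24 h in sham, against 13.2% of all probes, 2 in TBI, against 36.9%, 1 in TBI+MT, against 24.8%, and 2 in TBI+CB, against 10.2%. In limma 0 of 5 passed the threshold in each group, and the probes past it were 0% in sham, TBI and TBI+MT and 0.00568% in TBI+CB. The unadjusted p was under 0.05 for 2 of 5 genes in sham and 1 of 5 in TBI, against 2.94% and 15.3% of all probes. B2m was at least 2.07-fold lower at 24 h in TBI (measured log2 difference -1.19 ± 1.00 SE, limma, adjusted p = 0.454). In the difference of each drug response between the times 0 of 5 passed the threshold (0% of all probes), and 0 of 5 for MT and 1 of 5 for CB, Tapbp, had an unadjusted p under 0.05, against 4.67% and 7.75%.

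In the order of the 8 group means, Tap1 and Irf1 were highest in TBI at 4 h, Irf7 in sham at 4 h, Tapbp in TBI+CB at 4 h and B2m in TBI+CB at 24 h. Sham at 24 h was the lowest of the 8 for B2m, Tap1 and Irf7. The 2 highest groups of Tap1, TBI and TBI+CB at 4 h, overlapped, as did those of Irf1, the same 2 groups, and of B2m, TBI+CB at 24 h and TBI at 4 h. The 5 genes followed each other loosely over the 16 samples. Pearson's r was 0.57 between B2m and Tap1 and 0.53 between Tap1 and Irf7, while Tapbp had values of -0.31 to -0.13 with the other 4. These samples share groups, slide runs and signal strength, so the correlations are descriptions. Among 8184 other named genes, the pattern of B2m was most like those of Dcps and Adora1 (r = 0.89 for both), that of Tap1 like Nfil3 and Atraid (0.88), that of Tapbp like Fes (0.83) and Kpna6 (0.80), that of Irf1 like Cacng5 (0.78) and Prc1 (0.75), and that of Irf7 like Cnst and Pla2g6 (0.90).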

How the data were processed

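The authors hybridized amplified RNA of laser-captured neurons to CodeLink arrays and, per the file headers, read them with CodeLink Expression Analysis 4.1.0.29054. The deposited files give a raw intensity for each spot and the median of each array, and the deposited normalized intensity is the raw intensity over that median. Raw values below 0 occur, as after a background subtraction, which no source used here describes. In the table of processed values the lowest value is 0.01. That table, deposited by the authors as intensities on nearly the same scale, was used as an alternative. Here the ratio of raw intensity to array median, with 0.1 as its floor, was taken to log2. Spots flagged irregular or masked were left out, and a probe was kept if no array of at least 1 group flagged it as near background. Duplicate arrays were averaged to 1 value per pooled sample. One model of all 8 groups was fitted with limma 3.58.1 in R 4.3.3, which had 8 residual degrees of freedom to which its prior added 3.88. It tested 15 comparisons with Benjamini-Hochberg adjustment over all probes and a threshold of 0.05. The fit was tested on simulated data. No reads are counted on arrays, so the number of arrays limits the precision. A bound ("at least N-fold") sets the mean of the brighter group against a dim group none of whose arrays was above background, taking on each array the higher of the faintest signal above background and the value of the probe.

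Of 33849 probes, 16878 carry 1 gene symbol in the platform annotation, 182 several and 16789 none, and 16834 symbols were updated through RefSeq, whose promoter table (GRCr8) held all 7 genes. Where several kept probes share a gene, the brightest on average was used. Named are all 7 members, list genes past the threshold, the 2 genes of each list with the smallest unadjusted p in each comparison of TBI with sham or of a drug with TBI, from which examples were taken, and the 2 genes most like each member. Members and lists were chosen with earlier results of these data known. Alternatives changed the scaling, the floor, the filters, the arrays or samples used, the blocks, the variance trend and the probe of a gene. The methods describe no pairing of samples by replicate number, and the main fit used none.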

Additional observations from a re-analysis of the deposited data

Results flagged for a closer look

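Tapbp met the criterion of opposite directions at the 2 times. Both TBI samples were above both sham samples at 24 h (1.32 and 1.46 in TBI, 0.478 and 0.946 in sham) and below them at 4 h (0.871 and 0.123 in TBI, 1.33 and 1.45 in sham). The difference between the times was 3.13 on the log2 scale (± 1.32 SE, limma, adjusted p = 1.00), so it did not pass the threshold. At 24 h 1 of the 8 TBI and sham arrays was above background for this probe, and TBI replicate 2 at 4 h was not above background.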

How the results depend on the processing

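Under 34 other settings 0 of the 5 genes passed the threshold in any of the 15 comparisons that a setting allowed, replicate block included (0 of 5 in each). Over all probes the count moved from 0 to as many as 67 (TBI+MT against TBI at 4 h) and 60 (TBI against sham at 4 h), both without TBI 4 h replicate 1, and to 43 for TBI at 24 h against 4 h and 12 for TBI against sham at 24 h with all 32 arrays in the fit. For TBI+CB it was 16 against TBI at 24 h and 10 at 24 h against 4 h (1 as reported), both without TBI+CB 24 h replicate 1. Of 27 differences over 2-fold, 5 changed sign in a setting. Irf7 in TBI+CB against TBI at 24 h was 1.14, and in TBI+CB at 24 h against 4 h 1.28, without both dim 24 h samples, a setting chosen after seeing the data. Tapbp in sham at 24 h against 4 h was 1.78 with the slide run as a block. Leaving out 1 sample at a time gave -4.21 to 1.14 and -4.07 to 1.28 for these 2 Irf7 differences, -0.39 to 2.94 for B2m in TBI against sham at 24 h, and -2.29 to 0.077 for Tapbp in TBI+CB at 24 h against 4 h, which lay above 0 without TBI+CB 24 h replicate 1. The slide run block gave no value for either drug against TBI at 24 h. Deviations of same-numbered samples had correlations of either sign, from -0.57 to 0.56 over 28 pairs of groups. With TBI+CB at 24 h crossed, a setting added later, 0 of 5 passed as well. Requiring signal on all 32 arrays left Irf1 alone. With 2 pooled samples per group, the SE of a log2 difference ran from 0.515 for Irf1 to 1.36 for Irf7, and B2m, Tap1 and Tapbp were often near background.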
